A study of Homo sapiens with 6 samples.

Results

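The genes described here are the SR proteins and the hnRNPs, the main families of RNA-binding proteins that steer splice-site choice in human cells. They were taken as the genes whose symbol begins with SRSF or HNRNP, without pseudogene and read-through names, that had at least 10 estimated counts in at least 3 of the 6 libraries. Of 165 such symbols, 128 were left out by name and 4 (HNRNPCL1, HNRNPCL2, HNRNPCL3 and HNRNPCL4) fell below the minimum with no count above 2, which left 33 genes, 12 SRSF and 21 HNRNP, of the 58884 genes listed and of 15296 that met the same minimum. RNA-seq had been performed on an immortalized line of human cardiomyocytes, with 3 libraries from cells given a negative control siRNA (NC) and 3 from cells given an siRNA that targets CIRBP (SiCIRBP). The labels name the line T0519 and the paper's account of the sequencing names AC16, and both are human ventricular cardiomyocyte lines that divide in culture. The labels give no time or dose of siRNA and no treatment besides it.

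SR proteins carry an RNA-recognition domain and a tail rich in arginine and serine, bind enhancer sequences in exons and recruit the spliceosome, and several also act in mRNA export and translation. The hnRNPs coat nascent transcripts, often work against SR proteins at the same exons, and also serve in mRNA stability and transport. Many SR genes and some hnRNP genes limit their own level by splicing in or out a so-called poison exon, whose inclusion brings a premature stop codon and decay of the mRNA by the nonsense-mediated pathway. CIRBP, the cold-inducible RNA-binding protein, is itself counted among the hnRNPs by its domain structure, although its symbol keeps it outside the 33.

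The following exons show how a poison exon is laid out in SRSF3 and SRSF6. The length values of these genes, given further below, had opposite signs but did not pass the test, and values per gene cannot show exon use. Each stretch is read from the GRCh38 assembly through the GENCODE 29 transcripts, on the plus strand and 5′ to 3′. It begins at the first base of an exon that the decay transcript includes and the coding transcript skips, and ends with the premature stop codon, in capitals.
SRSF3 poison exon, chr6:36599821-36599854, first 34 of 456 bases (transcript SRSF3-203): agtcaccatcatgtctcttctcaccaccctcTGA
SRSF6 poison exon, chr20:43459153-43459304, first 152 of 268 bases (transcript SRSF6-202): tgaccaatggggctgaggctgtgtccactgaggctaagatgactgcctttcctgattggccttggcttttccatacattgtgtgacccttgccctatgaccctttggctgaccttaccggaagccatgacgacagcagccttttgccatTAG

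In SRSF3 the stop lay close to the start of the exon, and in SRSF6 it lay past the middle. The deposited values are 1 number per gene and library, so reads from such an exon are summed with those of the coding transcript. Of the 33 genes, 25 have at least 1 transcript annotated as a target of nonsense-mediated decay and 23 have at least 1 with a retained intron.

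Library totals ranged from 25726259 to 29919566 estimated counts. The target of the siRNA was lower in each SiCIRBP library, with CIRBP at 86.4, 85.8 and 90.9 normalised read counts (CPM, scaled by library size) in NC_1, NC_2 and NC_3 and at 54.8, 24.3 and 46.3 in SiCIRBP_1, SiCIRBP_2 and SiCIRBP_3. The study left NC_1 and SiCIRBP_2 out of its own test because they stood apart in the correlations and principal components of these same data, and the 4 remaining libraries are used first here, with all 6 beside them. SiCIRBP_2 correlated with the other libraries at 0.960 to 0.975 in log2(CPM + 1), whereas the other 5 correlated with each other at 0.981 or above. The summed CPM of 28 interferon-stimulated genes was 789 to 807 in the NC libraries, 456 in SiCIRBP_1, 1377 in SiCIRBP_3 and 7100 in SiCIRBP_2. The summed CPM of 8 fibroblast genes was 2581 to 3292 in the NC libraries, 3572 in SiCIRBP_1, 2031 in SiCIRBP_2 and 5839 in SiCIRBP_3. Most of that sum was COL1A1, at 2248 to 2932 CPM in the NC libraries and 3226, 1629 and 5234 CPM in the SiCIRBP libraries. The other genes did not all move with it. In SiCIRBP_2, COL1A2 stood at 202 CPM against 86.1 to 93.2 in the NC libraries, and THY1 at 125 CPM against 144 to 182. Of 14 cardiomyocyte markers, 10 were below 1 CPM in every library, with MYH6, MYL2, RYR2 and PLN at 0, while the cardiac transcription factor GATA4 lay between 47.4 and 111 CPM. The part of these differences in the values below was not tested, and in bulk RNA fewer cells of a type and less RNA per cell cannot be told apart.

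Compared per length, as TPM values, the HNRNP genes were the more abundant family. Their summed level was 7683, 7133 and 6858 TPM in the NC libraries and 7581, 7054 and 7550 TPM in the SiCIRBP libraries, so that the groups overlapped in TPM. Summed as CPM, they had 9460, 8759 and 8144 in the NC libraries and 9681, 10294 and 9768 in the SiCIRBP libraries. In CPM every SiCIRBP library thus lay above every NC library. The summed level of the SRSF genes was 1811, 1496 and 1465 TPM in the NC libraries and 1941, 1822 and 2026 TPM in the SiCIRBP libraries, and every SiCIRBP library lay above every NC library, SiCIRBP_2 by a narrow margin over NC_1.

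HNRNPA1, which binds silencers in exons and shuttles to the cytoplasm, had the highest level per length, at 1268, 1281 and 1281 TPM in the NC libraries and 1363, 1157 and 1230 TPM in the SiCIRBP libraries. HNRNPC, which binds uridine tracts and measures the length of nascent RNA, followed at 907, 818 and 796 TPM in the NC libraries and 843, 846 and 817 TPM in the SiCIRBP libraries. HNRNPA2B1, a reader of modified RNA and a paralogue of HNRNPA1, stood at 856, 747 and 669 TPM in the NC libraries and 792, 560 and 792 TPM in the SiCIRBP libraries. In none of these 3 genes were the groups apart, and the ranges of HNRNPC and HNRNPA2B1 overlapped each other, so that their order is within the spread between libraries.

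Among the SRSF genes SRSF3, the smallest SR protein and an adaptor for mRNA export, was the highest, at 347, 271 and 286 TPM in the NC libraries and 383, 399 and 388 TPM in the SiCIRBP libraries. SRSF2, which acts in the nucleus and binds both C-rich and G-rich exon motifs, had 317, 225 and 195 TPM in the NC libraries and 374, 344 and 437 TPM in the SiCIRBP libraries. SRSF9, a short relative of SRSF1, had 270, 234 and 211 TPM in the NC libraries and 278, 178 and 296 TPM in the SiCIRBP libraries. SRSF2 moved from below SRSF3 in every NC library to above it in SiCIRBP_3, while the order of SRSF2 and SRSF9 was within the spread of the NC libraries. At the other end lay SRSF12, which opposes other SR proteins, between 0.08 and 0.65 TPM, HNRNPA1L2, an intronless copy of HNRNPA1, between 3.15 and 5.16 TPM, and SRSF8, a gene derived from a copy of SRSF2, between 10.4 and 16.8 TPM.

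**Figure D1:**
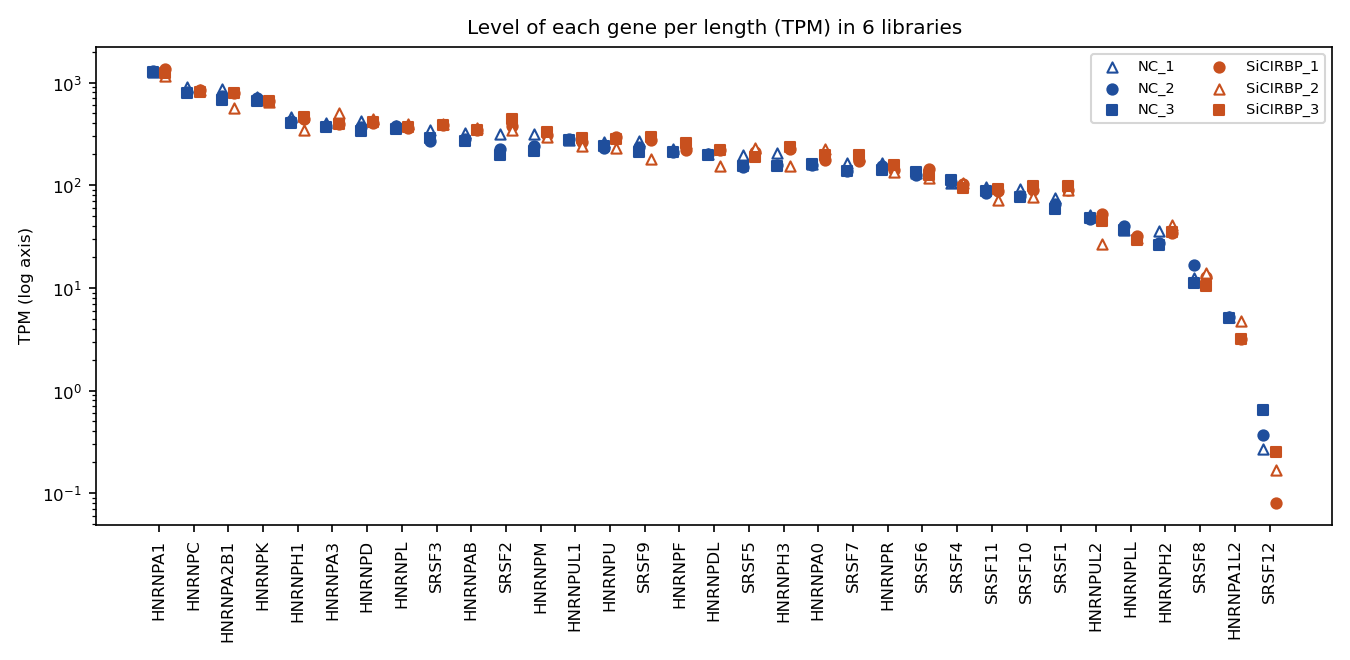
Level per length (TPM, log axis) of the 33 genes in each of the 6 libraries, ordered by their mean, with NC libraries in blue to the left and SiCIRBP libraries in orange to the right and NC_1 and SiCIRBP_2 as open triangles. HNRNPA1 has the highest level in every library and SRSF12, below 1 TPM, the lowest, and for most genes the groups lie close to each other on this scale.

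Over the 4 libraries of the study's own test, the SR and hnRNP genes lay mostly higher after CIRBP siRNA. In the quasi-likelihood test of edgeR, adjusted by Benjamini-Hochberg over all 15421 genes tested, 14 of the 33 genes passed an adjusted p of 0.05 in the upward direction and 0 in the downward direction, against 9.62% of all genes upward and 9.76% downward. At an unadjusted p under 0.05, 19 of the 33 were higher and 3 lower, against 18.2% and 18.5% of all genes, and DESeq2 called 1 lower (HNRNPLL), against 11.9% of all genes. The upward calls comprised 8 of 12 SRSF and 6 of 21 HNRNP genes. The log2 fold change was above 0 in 29 of the 33, against 49.8% of all genes, and its median was 0.28, 0.38 in the SRSF and 0.22 in the HNRNP genes, against -0.002 over all genes. In 27 of the 33 genes SiCIRBP_1 and SiCIRBP_3 both lay above NC_2 and NC_3, against 32.6% of all genes. None of the 33 passed the test with a change of 2-fold, whereas 1.82% of all genes rose and 1.8% fell by that much. The count of upward calls was 1 without NC_2, 0 without NC_3, 21 without SiCIRBP_1 and 22 without SiCIRBP_3, against 0.428%, 0.158%, 21.2% and 19.1% of all genes, and 6 of 32 with limma on log2(TPM + 1), against 3.54%. The labels do not say whether replicates were separate cultures, so p-values measure only the spread between these libraries.

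**Figure D2:**
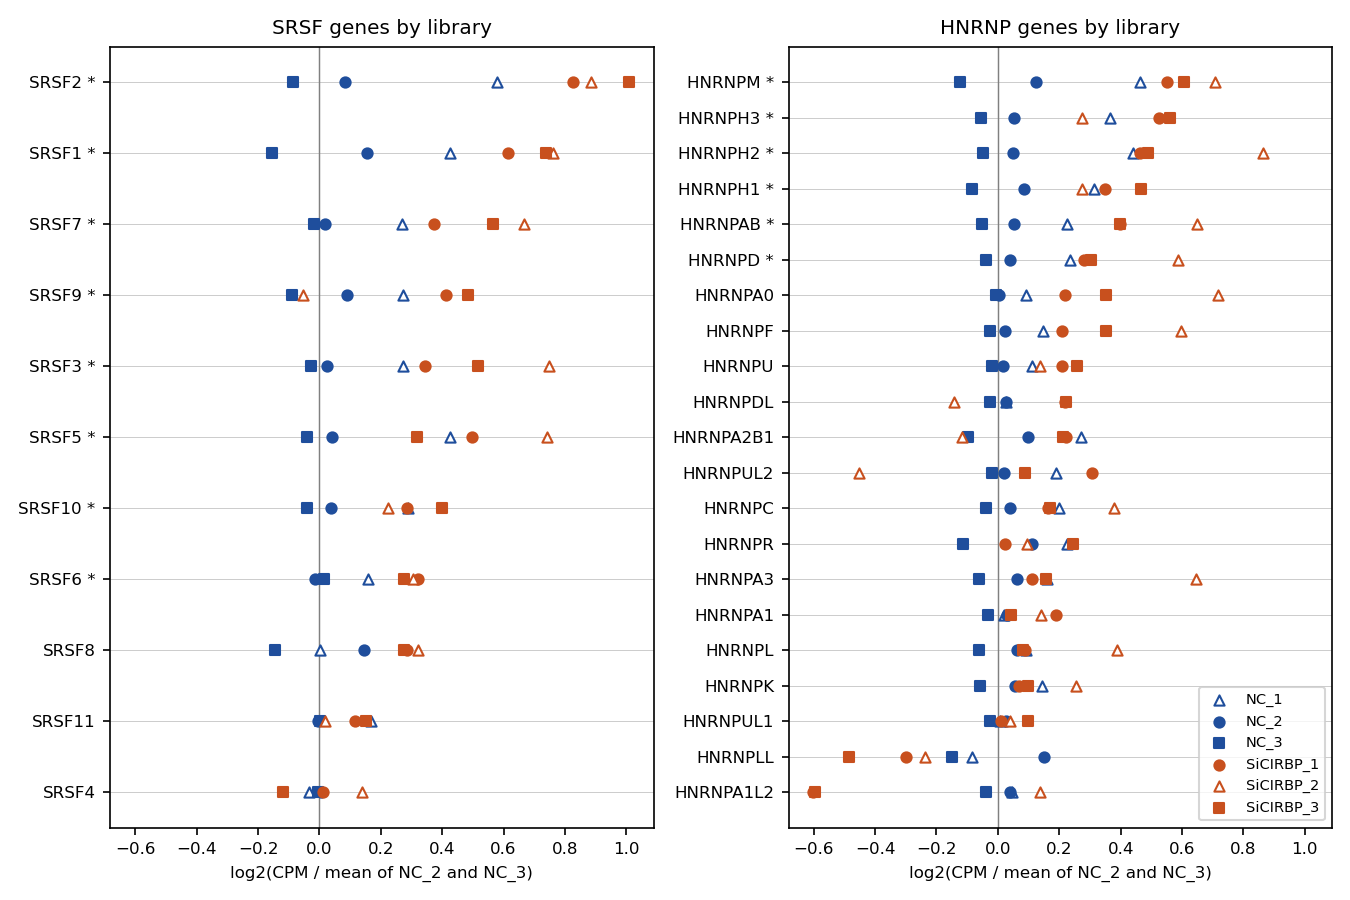
Log2 CPM of each gene relative to the mean of NC_2 and NC_3, in each library, with SRSF genes on the left, HNRNP genes on the right and an asterisk on the 14 genes past an adjusted p of 0.05 over 4 libraries (NC_1 and SiCIRBP_2, drawn as open triangles, were not in that test). NC_1 lies to the right of both other NC libraries in all 14 marked genes, and SRSF12, which had no more than 34 counts in a library, is not drawn.

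SRSF2 rose the most of the genes that passed. It had 334, 237 and 211 CPM in NC_1, NC_2 and NC_3 and 397, 413 and 450 CPM in SiCIRBP_1, SiCIRBP_2 and SiCIRBP_3, with every SiCIRBP library above every NC library. The log2 fold change was 0.92 (SE 0.10, n = 2 against 2, adjusted p = 0.00572), or 1.89-fold, over 4 libraries and 0.69 (SE 0.18, n = 3 against 3, adjusted p = 0.106) over all 6 in edgeR. Over the 15 other settings its log2 fold change lay between 0.69 and 1.00, and its adjusted p between 4.47e-43 without SiCIRBP_1 and 0.169 with a replicate block, with 0.073 without NC_3. SRSF2 shares 32.6% of its 31-base words with other genes, 32.0% with MFSD11, which overlaps it on the opposite strand, and MFSD11 itself stood at 16.2 to 22.6 CPM with a log2 fold change of 0.24 (adjusted p = 0.331).

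SRSF1, the founding SR protein and a regulator of splicing, translation and decay, followed. It had 205, 170 and 137 CPM in the NC libraries and 233, 258 and 254 CPM in the SiCIRBP libraries. No SiCIRBP library fell into the NC range, and the log2 fold change was 0.67 (SE 0.12, adjusted p = 0.0153) over 4 libraries. A gene annotated across the same locus, AC015813.2, holds 53.0% of the 31-base words of SRSF1 and moved with it, at 192, 120 and 94.8 CPM in the NC libraries and 185, 199 and 206 CPM in the SiCIRBP libraries, so that the division of reads between the pair is uncertain. SRSF9, the nearest relative of SRSF1, had 180, 159 and 140 CPM in the NC libraries and 198, 143 and 209 CPM in the SiCIRBP libraries. Its value in SiCIRBP_2 lay inside the NC range, and its log2 fold change was 0.45 (SE 0.09, adjusted p = 0.0216) over 4 libraries and 0.20 (SE 0.17, adjusted p = 0.481) over 6, with a range of 0.19 to 0.54 over the alternatives. SRSF9 shares 44.8% of its words with GATC, which overlaps it on the opposite strand and had a log2 fold change of 0.0064 (adjusted p = 0.976).

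SRSF3 and SRSF7 are close relatives, SRSF7 having in addition a zinc knuckle. SRSF3 had 335, 282 and 272 CPM in the NC libraries and 352, 465 and 397 CPM in the SiCIRBP libraries, a log2 fold change of 0.43 (SE 0.09, adjusted p = 0.0211). SRSF7 had 144, 121 and 118 CPM in the NC libraries and 155, 190 and 177 CPM in the SiCIRBP libraries, a log2 fold change of 0.47 (SE 0.09, adjusted p = 0.0198). In both genes all 3 SiCIRBP libraries lay above all 3 NC libraries, and SiCIRBP_2 was the highest of the 6.

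SRSF4, SRSF5 and SRSF6 form a group with 2 RNA-recognition domains and diverged in their values. SRSF5 had 168, 129 and 121 CPM in the NC libraries and 176, 209 and 156 CPM in the SiCIRBP libraries, with a log2 fold change of 0.41 (SE 0.09, adjusted p = 0.0285), and NC_1 lay above SiCIRBP_3. SRSF6 had 272, 242 and 247 CPM in the NC libraries and 305, 302 and 295 CPM in the SiCIRBP libraries, with a log2 fold change of 0.30 (SE 0.07, adjusted p = 0.0362) and no overlap. SRSF4 had 156, 160 and 159 CPM in the NC libraries and 161, 176 and 147 CPM in the SiCIRBP libraries. The groups overlapped in SRSF4, and its log2 fold change of -0.05 (SE 0.08, adjusted p = 0.687) turned to 0.025 over all 6 libraries.

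The remaining SRSF genes were SRSF10, SRSF8, SRSF11 and SRSF12. SRSF10, a repressor of splicing when it loses its phosphates after heat shock, rose by a log2 of 0.34 (SE 0.09, adjusted p = 0.0366), although NC_1 at 131 CPM lay inside the SiCIRBP range of 126 to 142. SRSF8 had a log2 fold change of 0.27 (SE 0.13, adjusted p = 0.186) and SRSF11 of 0.14 (SE 0.08, adjusted p = 0.248), neither past the threshold. SRSF12 had 13, 17 and 34 estimated counts in the NC libraries and 6, 2 and 13 in the SiCIRBP libraries, with a log2 fold change of -1.41 (SE 0.54, adjusted p = 0.109). The promoter of SRSF6 is given as the only one among the raised genes with a single entry in the RefSeq promoter table whose 250 bases before the start overlap no exon of GENCODE 29. It runs 5′ to 3′ on the plus strand of GRCh38.p14, and capitals mark the motif searched for as GGGCGG, here on the other strand, CCGCCC, the letters that the factor SP1 is known to bind.
SRSF6 promoter, chr20:43457646-43457895: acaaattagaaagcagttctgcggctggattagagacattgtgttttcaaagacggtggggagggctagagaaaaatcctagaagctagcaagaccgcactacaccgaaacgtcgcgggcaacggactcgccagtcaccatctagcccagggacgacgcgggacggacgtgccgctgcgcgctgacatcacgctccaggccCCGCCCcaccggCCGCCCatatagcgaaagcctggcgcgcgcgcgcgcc

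The SRSF6 window held 2 matches to GGGCGG. Over 45 windows of the 31 genes that matched the table by symbol, 60.0% held GGGCGG on either strand, against 42.6% of all 35116 windows, and 46.7% held ATTGG against 32.0%. The values were 17.8% against 14.5% for CCGGAA, 13.3% against 10.7% for TATAAA and 15.6% against 6.3% for CACGTG. The windows of all genes were not limited to genes with counts here, as the 33 were, so these differences are not shown to be particular to these families. A match describes the letters of a window and not a site in use. SRSF2 and HNRNPA1 are without an entry.

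Of the HNRNP genes, HNRNPM, which binds GU-rich sequence and opposes exon inclusion, had 422, 334 and 281 CPM in the NC libraries and 448, 500 and 466 CPM in the SiCIRBP libraries. The groups did not overlap and the log2 fold change was 0.57 (SE 0.10, adjusted p = 0.0151). HNRNPAB, a binder of AU-rich elements, had 362, 321 and 299 CPM in the NC libraries and 409, 485 and 409 CPM in the SiCIRBP libraries, also without overlap, with a log2 fold change of 0.40 (SE 0.08, adjusted p = 0.0191). HNRNPD, also called AUF1 and known for promoting decay of AU-rich mRNAs, rose by a log2 of 0.29 (SE 0.07, adjusted p = 0.0392), from 335 to 404 CPM in the NC libraries to 418 to 516 CPM in the SiCIRBP libraries.

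The H and F proteins bind runs of guanine, and their genes were measured side by side. HNRNPH1 had 445, 380 and 338 CPM in the NC libraries and 457, 434 and 495 CPM in the SiCIRBP libraries, with a log2 fold change of 0.41 (SE 0.09, adjusted p = 0.0276). HNRNPH2, its X-linked paralogue, had 56.1, 42.8 and 39.9 CPM in the NC libraries and 57.0, 75.3 and 58.1 CPM in the SiCIRBP libraries, with a log2 fold change of 0.48 (SE 0.09, adjusted p = 0.0195). HNRNPF had 336, 308 and 298 CPM in the NC libraries and 350, 459 and 387 CPM in the SiCIRBP libraries, with a log2 fold change of 0.28 (SE 0.08, adjusted p = 0.0561). HNRNPF thus did not pass although its groups were apart, whereas HNRNPH1 passed although SiCIRBP_2 lay below NC_1. In HNRNPH2 the lowest SiCIRBP library lay only just above NC_1.

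HNRNPH3, a shorter relative of these genes, had 197, 159 and 148 CPM in the NC libraries and 220, 185 and 226 CPM in the SiCIRBP libraries. Its log2 fold change was 0.54 (SE 0.08, adjusted p = 0.0102) over 4 libraries and 0.33 (SE 0.15, adjusted p = 0.225) over 6, between 0.33 and 0.59 over the alternatives. SiCIRBP_2 lay below NC_1.

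The genes of the A group did not pass the test. HNRNPA1 had 1235, 1244 and 1192 CPM in the NC libraries and 1389, 1341 and 1255 CPM in the SiCIRBP libraries, with a log2 fold change of 0.12 (SE 0.08, adjusted p = 0.348) and groups that did not overlap. HNRNPA2B1 had 1025, 908 and 794 CPM in the NC libraries and 992, 782 and 984 CPM in the SiCIRBP libraries, with a log2 fold change of 0.22 (SE 0.09, adjusted p = 0.132). HNRNPA3 had 561, 524 and 481 CPM in the NC libraries and 543, 786 and 560 CPM in the SiCIRBP libraries, with a log2 fold change of 0.13 (SE 0.08, adjusted p = 0.269). HNRNPA2B1 had its lowest value and HNRNPA3 its highest in SiCIRBP_2, and in each of them the groups overlapped. Pseudogenes of HNRNPA1, 75 listed genes, held 0.7% of the counts of HNRNPA1 itself. HNRNPA0, an intronless member of the group, had 211, 198 and 197 CPM in the NC libraries and 230, 325 and 252 CPM in the SiCIRBP libraries, apart, with a log2 fold change of 0.29 (SE 0.08, adjusted p = 0.0518).

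Among the other HNRNP genes the log2 fold changes ran from 0.06 to 0.24 without a call: HNRNPU, the scaffold protein of the nuclear matrix, at 0.24, HNRNPDL at 0.22, HNRNPUL2 at 0.20, HNRNPC at 0.17, HNRNPR at 0.14, HNRNPL, a binder of CA repeats, at 0.08, the polycytidine-binding HNRNPK at 0.08 and HNRNPUL1 at 0.06. The HNRNP genes with a negative value were HNRNPLL and HNRNPA1L2. HNRNPLL, a paralogue of HNRNPL known from splicing in lymphocytes, had 68.5, 80.5 and 65.4 CPM in the NC libraries and 59.0, 61.6 and 51.9 CPM in the SiCIRBP libraries. It was the only one of the 33 genes with all SiCIRBP libraries below all NC libraries, with a log2 fold change of -0.40 (SE 0.13, adjusted p = 0.0723). HNRNPA1L2 had a log2 fold change of -0.60 (SE 0.21, adjusted p = 0.0909), with 127, 114 and 128 estimated counts in the NC libraries and 82.9, 122 and 80.3 in the SiCIRBP libraries. It shares 76.4% of its 31-base words with other genes, 59.2% with HNRNPA1, so that its counts depend on how reads that match both were divided.

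Over all 6 libraries 0 of the 33 genes passed in either direction in edgeR, where 0 of 15217 genes did (0% of all genes upward and 0% downward). At an unadjusted p under 0.05, 11 of the 33 were higher and 2 lower, against 12.1% and 11.6% of all genes, and DESeq2 over the same 6 libraries called 2 upward, SRSF2 and SRSF1, and 0 downward, against 4.48% and 5.04% of all genes. The sign was again positive in 29 of 33, with a median of 0.20 against 0.008 over all genes. In 14 of the 33 genes all SiCIRBP libraries lay above all NC libraries and in 1 below, against 16.2% and 16.6% of all genes, and 9 of the 14 genes called over 4 libraries were among those apart.

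**Figure D3:**
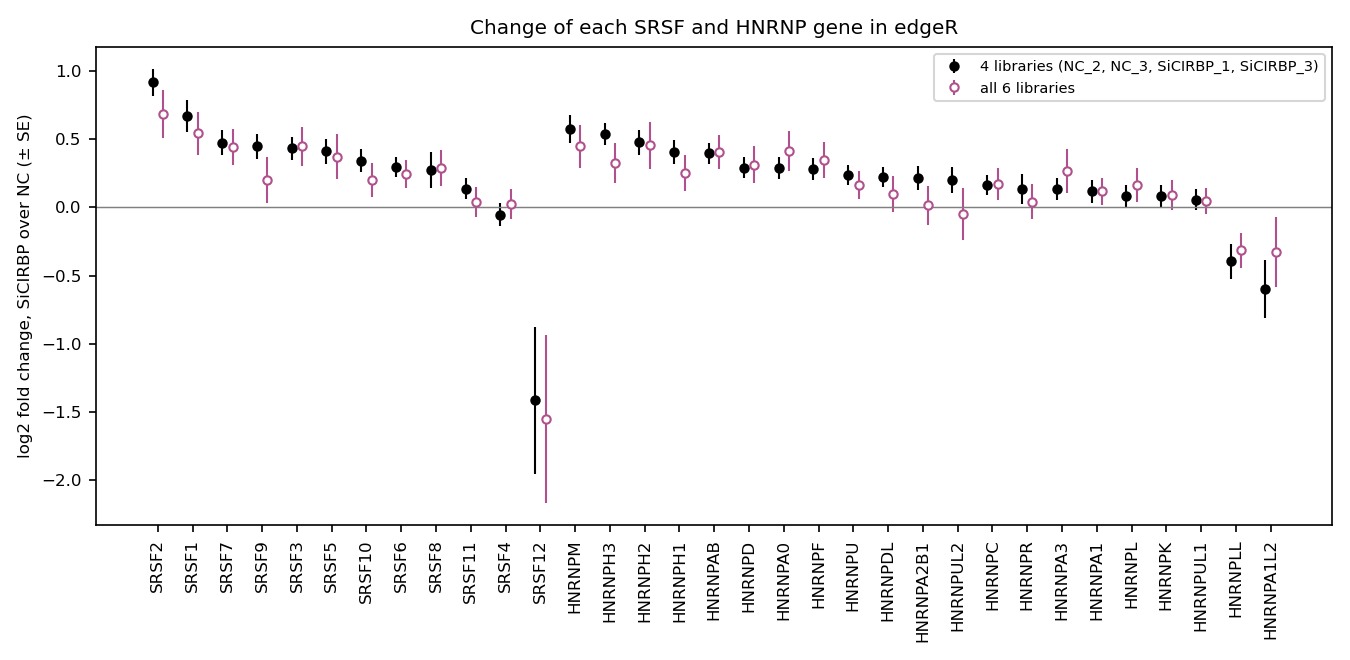
Log2 fold change (SiCIRBP over NC) with its standard error in edgeR for each of the 33 genes, over 4 libraries (filled) and over all 6 (open), with SRSF genes to the left of HNRNP genes and each family in order of the 4-library value. Most values lie above 0 in both, the 6-library errors are wider for most genes, and SRSF12, with few counts, has the widest.

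The 2 libraries outside the study's test took different positions in these genes. NC_1 lay above both other NC libraries in 27 of the 33 genes, against 40.4% of all genes. In the 14 genes called upward it did so in 14 of 14, against 89.5% of the 1467 genes called upward over 4 libraries that were also kept by the filter over 6. The distance between the means of the other NC and the other tested SiCIRBP libraries was covered by NC_1 in a share with a median of 0.65 in the 14 genes, from 0.53 in SRSF6 to 1.04 in SRSF5, and of 0.48 over those 1467 genes. The CIRBP level of NC_1, by contrast, lay between those of NC_2 and NC_3. With NC_1 added to the 4 libraries, 0 of the 33 genes passed upward against 3.57% of all genes, and with SiCIRBP_2 added instead, 0 passed against 0.0322%. Both of these fits were chosen after the data had been seen.

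SiCIRBP_2, the library with the lowest CIRBP and the highest interferon-stimulated sum, was the highest of the 6 libraries in 17 of the 33 genes, against 31.1% of all genes, and lay below both other SiCIRBP libraries in 10, against 42.2%. It was the lowest of all 6 in 4 genes, among them HNRNPUL2, the regulator of DNA end resection, with 189, 168 and 164 CPM in the NC libraries and 206, 121 and 177 CPM in the SiCIRBP libraries. The log2 fold change of HNRNPUL2 was 0.20 (adjusted p = 0.175) over 4 libraries and -0.05 (adjusted p = 0.886) over 6. A read-through gene, HNRNPUL2-BSCL2, holds 43.6% of its words. In SiCIRBP_2 that gene had its highest value, 158 CPM against 116 to 144 CPM elsewhere. In SiCIRBP_1 the reverse held, with HNRNPUL2 at its highest, 206 CPM, and the read-through gene at its lowest, 116 CPM. The read-through gene had a log2 fold change of -0.26 (SE 0.08, adjusted p = 0.0637 in edgeR) over 4 libraries. The division of reads between the pair is uncertain.

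The ratio of count to TPM gives the effective length that the quantification assigned to a gene in a library, which changes when reads are assigned to longer or shorter transcripts. It was calibrated to bases on 227 genes with a single annotated transcript, of which 57.3% to 59.0% lay within 1% of the fitted line in each library. Effective length is the transcript length less about the length of a sequenced fragment, here fitted as 256 to 268 bases. With the fragment added back, 30 of the 33 genes had a mean length inside the range of their GENCODE 29 transcripts. That range is wide for many of them, such as 123 to 5564 bases in HNRNPH1, so lying inside it is a weak check. The exceptions were HNRNPA0, at 1885 bases against a single transcript of 8726, and HNRNPH2, at 2296 against a single transcript of 2223. SRSF1, at 3506 bases, exceeded its longest transcript of 3117.

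No gene passed in length. With limma on log2 length over 4 libraries, 0 of the 32 genes that met a minimum of 1 TPM in every library were longer or shorter at an adjusted p of 0.05, and 0 of 12153 genes were (0% in each direction). At an unadjusted p under 0.05, 1 of the 32 was longer and 2 were shorter, against 6.14% and 6.99% of all genes. The median log2 change was -0.02 in the 32 genes and -0.02 over all genes, and 25 of 32 were negative against 61% of all genes. Over all 6 libraries limma also called 0 of the 32, as it did of all 11813 genes (0% in each direction), and at an unadjusted p under 0.05 it gave 2 longer and 4 shorter, against 5.26% and 6.14% of all genes. On the log2 scale, centred within each library, 2 genes were longer in all SiCIRBP libraries than in all NC libraries (HNRNPH1 and HNRNPUL2) and 6 were shorter (HNRNPLL, SRSF2, SRSF5, HNRNPA0, SRSF10 and HNRNPA3), against 7.14% and 10.4% of all genes.

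Among the longer genes, HNRNPH1 was the one with an unadjusted p under 0.05 over 4 libraries. Its effective length was 1241, 1145 and 1109 bases in the NC libraries and 1270, 1378 and 1325 bases in the SiCIRBP libraries, which did not overlap. The log2 change was 0.18 (SE 0.04, adjusted p = 0.273) over 4 libraries and 0.17 (SE 0.05, adjusted p = 0.338) over 6 in limma. The rise of 0.41 in counts came to 0.12 on the scale of log2(TPM + 1). There HNRNPH1 had 460, 426 and 407 TPM in the NC libraries and 445, 347 and 463 TPM in the SiCIRBP libraries. Its length change covers only part of that drop, since values per length were also lower in genes with little length change. HNRNPA1, with a log2 length change of -0.0035, had 0.12 in counts and 0.016 per length. HNRNPAB, with a length change of -0.017, had 0.40 and 0.31. Per length the groups of HNRNPH1 overlapped, and SiCIRBP_2 was the lowest of all.

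SRSF6, whose poison exon is printed above, had 125 to 135 TPM in the NC libraries and 117 to 142 TPM in the SiCIRBP libraries, where the groups were not apart as they were in CPM. Its log2 length change was 0.16 (SE 0.06, adjusted p = 0.44 in limma), and relative to the mean of NC_2 and NC_3 its log2 length was 0.10 in NC_1 and 0.09, 0.20 and 0.22 in the SiCIRBP libraries, so that NC_1 lay above SiCIRBP_1. SRSF8 had the highest value, 0.42, but with a spread inside the NC libraries from -0.18 to 0.18. HNRNPUL2 was longer by 0.05 (SE 0.02, adjusted p = 0.456).

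On the other side, HNRNPLL had an effective length of 2414, 2580 and 2403 bases in the NC libraries and 2306, 2214 and 2198 bases in the SiCIRBP libraries, a log2 change of -0.17 (SE 0.06, adjusted p = 0.394). SRSF2 had 1353, 1354 and 1443 bases in the NC libraries and 1313, 1324 and 1275 bases in the SiCIRBP libraries, a log2 change of -0.14 (SE 0.04, adjusted p = 0.379). SRSF3, the other gene whose exon is printed, had 1238, 1337 and 1271 bases in the NC libraries and 1138, 1284 and 1266 bases in the SiCIRBP libraries, a log2 change of -0.14 (SE 0.07, adjusted p = 0.538), and its groups overlapped. HNRNPU was shorter by 0.15 on the log2 scale, with the largest departure in SiCIRBP_1. HNRNPH3, which with SRSF2 was shorter at an unadjusted p under 0.05, was at -0.11 (SE 0.02, adjusted p = 0.278) over 4 libraries and at -0.03 (SE 0.06, adjusted p = 0.856) over 6, and in SiCIRBP_2 it was longer than in any NC library. SRSF5 was at -0.07, HNRNPA0 at -0.05, SRSF10 at -0.05 and HNRNPA3 at -0.04. In bases, where each library has its own calibration, the groups of HNRNPA0, SRSF10 and HNRNPA3 were not apart, which shows how small those differences are. Of the 14 genes called upward in counts, 12 had a negative length change, with HNRNPH1 and SRSF6 as the others. Among all genes 61% were negative, with a median of -0.016. HNRNPH2, which has a single annotated transcript, was itself at -0.02, so values of that size do not show a shorter transcript.

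**Figure D4:**
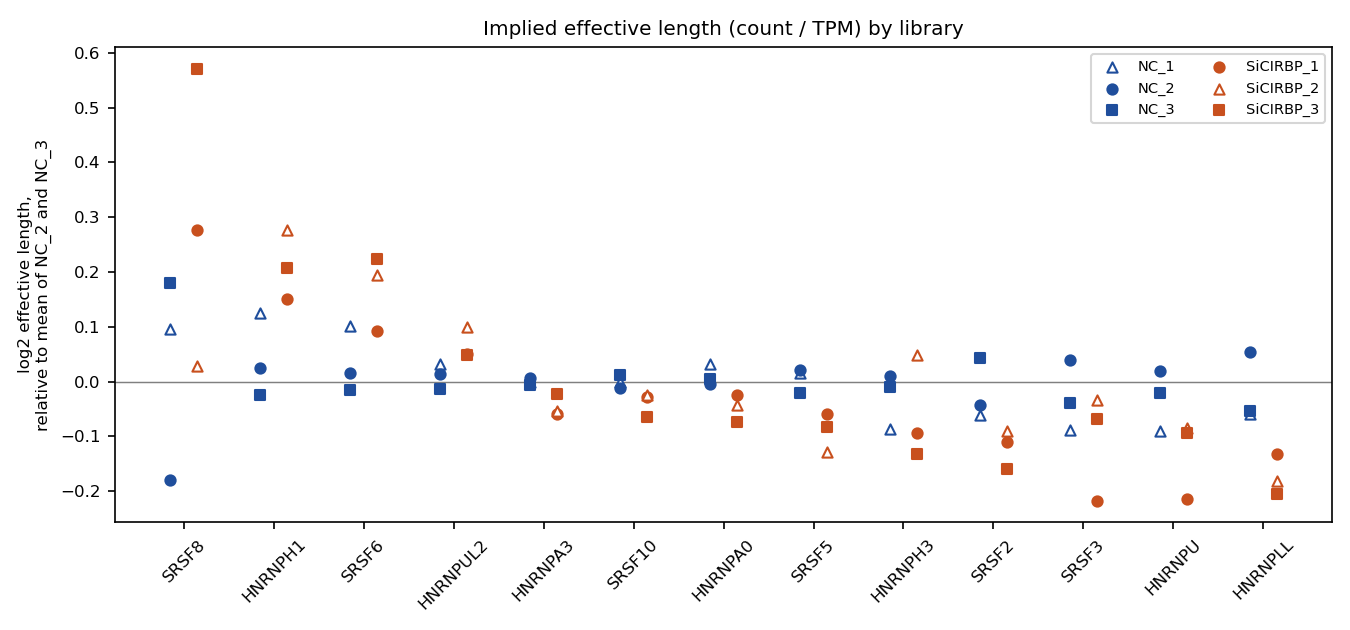
Log2 of the implied effective length (count divided by TPM, centred within each library) relative to the mean of NC_2 and NC_3, for the genes whose length change is given in the text, in each of the 6 libraries. HNRNPH1 and HNRNPUL2 have every SiCIRBP library above every NC library, and SRSF8 has the widest spread among the NC libraries. HNRNPLL, SRSF2 and SRSF5 have every SiCIRBP library below every NC library, as do HNRNPA0, SRSF10 and HNRNPA3 by smaller margins.

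Genes that work with the SR proteins and hnRNPs gave calls in both directions over the 4 libraries, where 9.62% of all genes rose and 9.76% fell. Of 13 kinases and import receptors of SR proteins, 0 rose and 3 fell, with a median log2 fold change of -0.22. At an unadjusted p under 0.05 in edgeR 0 were higher and 7 lower, against 18.2% and 18.5% of all genes. DESeq2 called 0 upward and 3 downward, against 10.7% and 11.9% of all genes. SRPK2, which phosphorylates SR proteins in the cytoplasm, had 58.5, 72.0 and 69.9 CPM in the NC libraries and 44.1, 36.1 and 46.3 CPM in the SiCIRBP libraries and fell by 0.65 on the log2 scale (SE 0.09, adjusted p = 0.00864). CLK1, which phosphorylates them in the nucleus, had 61.2, 78.4 and 81.9 CPM in the NC libraries and 55.7, 49.6 and 44.6 CPM in the SiCIRBP libraries and fell by 0.68 (SE 0.12, adjusted p = 0.0163). Both kinases were lower in all SiCIRBP libraries than in all NC libraries, and DYRK1A was the third of the list that fell. Over all 6 libraries edgeR called 0 of the list and DESeq2 called 2 downward, against 0% and 5.04% of all genes downward.

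Of 30 SR-related proteins, which carry arginine and serine repeats outside the SRSF family, 2 rose and 5 fell, not far from the 9.62% and 9.76% of all genes, with a median of -0.03. The risers were LUC7L3, a U1-associated protein, by 0.52 (SE 0.09, adjusted p = 0.0141) and TRA2B, an activator of exon inclusion, by 0.50 (SE 0.09, adjusted p = 0.0182). RSRP1 fell by 0.46 (adjusted p = 0.0232) and RSRC2 by 0.35 (adjusted p = 0.0344). Of 7 hnRNP proteins listed under other names, RBMX and SYNCRIP rose, by 0.35 (adjusted p = 0.0237) and 0.46 (adjusted p = 0.0378), and 0 fell in edgeR. At an unadjusted p under 0.05 in edgeR, 4 were higher and 0 lower, against 18.2% and 18.5% of all genes. DESeq2 called 4 upward and 0 downward, against 10.7% and 11.9%.

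In the core of the spliceosome 16 of 50 genes rose and 1 fell, against 9.62% and 9.76% of all genes, with a median of 0.17. SF3B4, a component of the U2 particle, had 162, 137 and 128 CPM in the NC libraries and 189, 262 and 207 CPM in the SiCIRBP libraries and rose by 0.58 (SE 0.09, adjusted p = 0.0102). SNRPC, a component of the U1 particle, had 137, 112 and 100 CPM in the NC libraries and 157, 216 and 152 CPM in the SiCIRBP libraries and rose by 0.54 (SE 0.09, adjusted p = 0.0134). In both genes all SiCIRBP libraries lay above all NC libraries. SNRNP27, of the tri-snRNP, was the gene that fell, by 0.39 (adjusted p = 0.0415).

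Of 27 other splicing regulators 4 rose and 3 fell, near the 9.62% and 9.76% of all genes. EWSR1 rose by 0.82 (SE 0.08, adjusted p = 0.00465) and TARDBP by 0.69 (SE 0.10, adjusted p = 0.00955), both RNA-binding proteins of the nucleus, while PTBP3 fell by 0.56 (SE 0.08, adjusted p = 0.0102) and PTBP2 by 0.65 (SE 0.12, adjusted p = 0.016), both relatives of the polypyrimidine tract-binding protein. Of 15 factors of nonsense-mediated decay 2 rose, again near that share, and 0 fell in edgeR. EIF4A3, of the exon junction complex, rose by 0.40 (adjusted p = 0.0208) and UPF2 by 0.42 (adjusted p = 0.0398). At an unadjusted p under 0.05 in edgeR, 5 of these factors were higher and 4 lower, against 18.2% and 18.5% of all genes. DESeq2 over 4 libraries called 2 of them upward and 1 downward, against 10.7% and 11.9%. Over all 6 libraries edgeR called 0 genes of these 6 lists in either direction, with 29 higher and 11 lower of 141 at an unadjusted p under 0.05, against 12.1% and 11.6% of all genes, and DESeq2 called 6 upward and 4 downward of 147, against 4.48% and 5.04%.

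**Figure D5:**
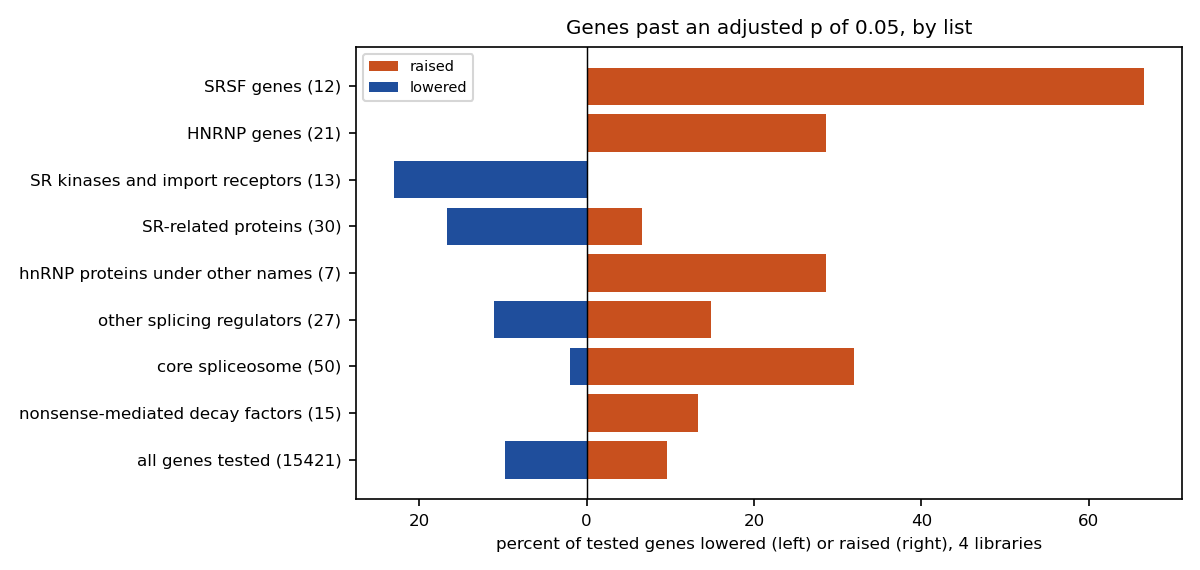
Percent of the tested genes of each list that passed an adjusted p of 0.05 in edgeR over 4 libraries, raised to the right and lowered to the left, with the number of genes tested in parentheses. The SRSF bar, 8 of 12 genes, is the longest to the right, the kinases and import receptors have calls only to the left, and 9.62% of all genes tested were raised and 9.76% lowered.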

How the data were processed

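RNA-seq values of 6 libraries were analysed, 3 NC and 3 SiCIRBP, grouped and numbered by the labels. The authors deposited an estimated count per gene and library, from which totals of 25726259 to 29919566 were obtained, and a TPM value, in which the count is scaled by an assigned effective length and by library. The submitters' processing notes name fastp, HISAT, RSEM and hg38, and tool versions and the annotation release are not given in the sources used here. Columns of fold changes and p-values deposited by the authors were not used. The genes and the lists were chosen with earlier results of these data known.

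Counts were rounded and tested in edgeR 4.0.16 (R 4.3.3) with TMM normalization, filterByExpr and the quasi-likelihood test over all genes, with Benjamini-Hochberg adjustment and a threshold of 0.05 of any fold. The study's 4 libraries, SiCIRBP_1, SiCIRBP_3, NC_2 and NC_3, were fitted first. Standard errors were derived from the F statistic and the log2 fold change. CPM values use TMM factors over all 6 libraries. Log2 of count over TPM, centred on the median gene of each library, was tested with limma 3.58.1 in genes of at least 1 TPM. Its conversion to bases was devised after the data had been seen, by fitting genes with at least 100 counts and 1 annotated transcript and keeping those within 1%. GENCODE 29 contained 58552 of the identifiers. The deposited length equalled the longest GENCODE 29 transcript in 44265 of 58884 genes, so the annotation behind the files differs from it. Shared sequence is the percent of 31-base words of a gene's transcripts found in those of other genes. Strandedness of the counting is not given in the sources used here, so overlapping genes on opposite strands are uncertain. The fits were tested on simulated data.

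Every gene is named. Values per library are given for the 8 raised genes with the smallest p, the 3 highest TPM of each family, the 4 largest length changes each way and the paralogue groups, and others were added after their values had been seen. From each list up to 2 raised and 2 lowered genes with the smallest p are named, besides single genes that complete a count. The alternatives were all 6 libraries, a replicate block, DESeq2 1.42.0, RLE factors, no filter, at least 10 counts in every library, each library left out, limma on log2(TPM + 1) and log2(TPM + 0.1) and, for length, at least 5 TPM, another centring and no trend. Same-numbered libraries correlated at -0.118, 0.006 and -0.026 in their deviations from the group means, so the numbers were not taken to pair them.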

Additional observations from a re-analysis of the deposited data

Results flagged for a closer look

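In 8 genes the library SiCIRBP_2, which the study's test left out, was the highest of the 6 and lay above the highest NC library by more than 0.25 on the log2 CPM scale and by more than the whole spread between the NC libraries, limits set after the values had been seen. HNRNPH2, SRSF1 and SRSF5 met the first but not the last of these limits. The share of all genes that met all of these limits was not counted, so the count of 8 cannot be read as a trait of these genes. SiCIRBP_2 was the highest of the 6 in 31.1% of all genes. Above the highest NC library it stood by 0.63 in HNRNPA0, 0.49 in HNRNPA3, 0.48 in SRSF3, 0.45 in HNRNPF, 0.42 in HNRNPAB, 0.40 in SRSF7, 0.35 in HNRNPD and 0.30 in HNRNPL. HNRNPA3 and HNRNPL had log2 fold changes of 0.13 and 0.08 over the 4 libraries and of 0.32 and 0.19 with SiCIRBP_2 added to them, none past the threshold. SiCIRBP_2 also had the lowest CIRBP, 24.3 CPM, and the highest sum of interferon-stimulated genes, 7100 CPM, and the part of either in these levels was not tested.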

How the results depend on the processing

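DESeq2 over 4 libraries gave 16 raised genes and RLE factors gave 14, against 10.7% and 9.7% of all genes. No filter and the stricter filter each gave 16, against 7.99% and 11% of all genes. In these settings the count of 14 raised genes kept within 1.5 times. It was 0 over all 6 libraries, 0 with NC_1 added, 0 with SiCIRBP_2 added, 2 in DESeq2 over 6 and 6 with limma on either TPM scale, and between 0 and 22 with each library left out, where an arm is a lone library assumed to vary like the others. The count of lowered genes, 0, was 1 in DESeq2 over 4 libraries and 2 without a filter, against 11.9% and 9.38% of all genes. Of the 142 genes of the splicing lists tested over 4 libraries, 26 were raised and 12 lowered, against 9.62% and 9.76% of all genes. The raised count was 0 over all 6, 6 in DESeq2 over 6, 8 with limma on either TPM scale, 4 with NC_1 added and 0 with SiCIRBP_2 added, and 0 to 50 with each library left out. The lowered count was 0 over all 6, 4 in DESeq2 over 6, 20 without a filter, 5 with NC_1 added and 0 with SiCIRBP_2 added, and 0 to 31 with each library left out. Of all genes, 0% were raised over all 6, 4.48% in DESeq2 over 6 and 3.54% and 3.3% with limma on log2(TPM + 1) and log2(TPM + 0.1). Lowered were 0% over all 6, 5.04% in DESeq2 over 6 and 9.38% without a filter. With NC_1 added 3.57% were raised and 3.63% lowered, and with SiCIRBP_2 added 0.0322% and 0.0837%. With each library left out the all-gene shares moved as well, so those ranges do not by themselves show a trait of the lists. A replicate block could not be fitted over 4 libraries, whose groups share only the number 3. Over 6 libraries the replicate block gave 0 raised and 0 lowered of the 33 genes and 0 and 0 of the listed genes. The cause of these moves was not tested.

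Some uncalled values changed sign. HNRNPK was at -0.0522 and -0.0523, HNRNPUL1 at -0.028 and -0.0281 and SRSF8 at -0.231 and -0.2461 with limma on log2(TPM + 1) and log2(TPM + 0.1). HNRNPUL2 was at -0.0508 over all 6 libraries, -0.0821 with the replicate block and -0.0496 in DESeq2. SRSF4 was at 0.0249 over all 6 libraries, 0.0202 with the replicate block, 0.0269 in DESeq2, 0.0131 with SiCIRBP_2 added and -0.1252 to 0.0061 with each library left out, the positive value without SiCIRBP_3. In length no alternative gave a call. With 2 libraries a group, the spread is estimated mainly from other genes, and SRSF12, with 2 to 34 counts, is limited by counting error.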
